A study of Mus musculus with 3 samples.

Results

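Ccna1/Cdc20-gated cells are male germ cells of the mouse testis that carry the mRNAs of Ccna1, the meiotic cyclin A1, and Cdc20, an activator of the anaphase-promoting complex. They were chosen by counts of unique molecular identifiers (UMIs, 1 per captured mRNA molecule) in single-cell libraries. A barcode was kept at 8000 or more UMIs, over 500 genes and under 10% mitochondrially encoded UMIs. A kept cell was a member when Ccna1 and Cdc20 together gave at least 4 UMIs and at least 0.03% of its UMIs, Dazl gave under 0.03%, and Prm1, Prm2, Tnp1 and Tnp2 together gave under 1%. The rule found 1767 members among 4739 kept cells, 543 of 2286 in the wild type (WT), 799 of 1595 in GRTH-KO (KO) and 425 of 858 in GRTH-KI (KI).

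The 3 libraries were testicular cell suspensions of C57BL/6 mice aged 8 weeks by the labels, 1 library per genotype. The gene studied, Ddx25, encodes GRTH, a DEAD-box helicase of male germ cells and Leydig cells. KO mice lack the gene, and KI mice carry the human gene with an arginine-to-histidine missense change that removes the phosphorylated form of the protein. The labels name 1 mouse per library, whereas the methods of the study describe a pool of 2 mice over a wider age range, and both statements stand here. With 1 library per genotype no difference between genotypes could be tested, intervals are 95% intervals of counting error only, and a difference between genotypes cannot be told apart from one between libraries.

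Meiosis in the male runs through a long prophase, in which pachytene spermatocytes pair and recombine their chromosomes and silence the X and Y chromosomes. Late spermatocytes then store mRNAs and take up the cyclin B and Cdk1 kinase machinery, divide without pause between the divisions, and give round spermatids, which begin to build the acrosome and transcribe the X or Y chromosome again in part. GRTH sits in the nucleus and in the chromatoid body, a cytoplasmic granule of spermatocytes and round spermatids, and is known for the export, storage and translation of germ cell mRNAs.

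Some promoters of genes used at cell division hold a CCAAT box and the element TTTGAA. The gate gene Cdc20 and the cell division genes highest in both mutants among gated cells, Ube2c and Hmmr, are therefore shown by the bases before their start (RefSeq, GRCm38.p6, 5′ to 3′ on the strand of the gene), with TTTGAA and CCAAT on either strand (TTCAAA and ATTGG on the other) in capitals.
Cdc20, chr4:118437353-118437593, minus strand: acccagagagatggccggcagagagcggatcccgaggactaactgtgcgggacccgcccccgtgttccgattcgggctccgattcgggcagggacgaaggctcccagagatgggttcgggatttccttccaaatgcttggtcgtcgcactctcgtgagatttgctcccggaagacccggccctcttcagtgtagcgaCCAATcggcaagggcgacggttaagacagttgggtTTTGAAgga
Ube2c, chr2:164769679-164769897, plus strand: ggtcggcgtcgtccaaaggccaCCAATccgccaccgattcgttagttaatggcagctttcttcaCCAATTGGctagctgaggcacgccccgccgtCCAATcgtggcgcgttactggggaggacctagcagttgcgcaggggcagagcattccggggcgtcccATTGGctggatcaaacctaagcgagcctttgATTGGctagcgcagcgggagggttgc
Hmmr, chr11:40733438-40733687, minus strand: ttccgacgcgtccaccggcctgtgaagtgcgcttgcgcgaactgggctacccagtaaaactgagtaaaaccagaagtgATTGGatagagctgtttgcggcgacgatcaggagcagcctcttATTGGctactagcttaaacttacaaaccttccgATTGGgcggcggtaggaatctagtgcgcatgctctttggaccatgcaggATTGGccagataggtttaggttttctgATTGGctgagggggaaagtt
The bases that an annotated transcript of the gene already covers were left off, 9 in Cdc20 and 31 in Ube2c. In the whole window of 250 bases, Cdc20 held 1 TTTGAA and 2 CCAAT, Ube2c held 1 TTTGAA and 6 CCAAT, and Hmmr held 5 CCAAT and no TTTGAA. Of all 32851 promoter windows of 250 bases, 16.0% held TTTGAA, 33.8% held CCAAT and 5.55% held both. Of the division lists used below, 3 of 16 cyclin and Cdk and 6 of 27 anaphase-promoting complex genes held TTTGAA. So did 0 of 17 kinetochore and 12 of 24 spindle genes. CCAAT was held by 12, 11, 8 and 14 of them in that order, and both by 3, 4, 0 and 9. The matches are a description of these letters.

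Members took 23.8% of kept WT cells (22.0 to 25.6%, exact Clopper-Pearson), 50.1% of kept KO cells (47.6 to 52.6%) and 49.5% of kept KI cells (46.1 to 52.9%). WT had the lowest share, and the shares of the mutants overlapped in their intervals. The study reports Ccna1 and Cdc20, the genes of the gate, as up-regulated in round spermatids of KO and KI. A higher level of either gene lets more cells pass the gate, so these shares are values of the rule. The part of such a rise in the shares was not tested. Among kept cells under the protamine and transition protein limit, which leaves out elongating spermatids, members made up 41.2% of 1317 WT cells, 58.0% of 1377 KO cells and 54.4% of 781 KI cells. The median kept cell held 13484, 20153 and 30550 UMIs, and because the gate asks for 4 UMIs a deeper cell passes more easily. When every kept cell was thinned to 8000 UMIs, members were 16.8%, 35.0% and 33.0% of them. These are shares of all kept cells, those above the protamine and transition protein limit included. No share given here was both thinned and taken under that limit.

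The median member held 15467 UMIs from 4423 genes in WT, 19747 from 5017 in KO and 29126 from 5953 in KI, and the summed UMIs were 11589206, 22366523 and 19563397. Thinned to 8000 UMIs the median number of genes was 3153, 3183 and 3197. No barcode was shared between libraries among members, and 1 was shared by WT and KI among kept cells. No doublet caller was run.

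The genes of the rule describe the gate and are no finding. Ccna1 stood at 286 CPM (the UMIs of a gene summed over cells and scaled to a common library total), 269 and 279, values being given in the order WT, KO and KI from here on, and Cdc20 at 236, 304 and 275. Across cells the Pearson correlations of the 2 genes were -0.08 in WT (543 cells), 0.05 in KO (799 cells) and 0.17 in KI (425 cells), in counts that share each cell's depth. Members with no Ccna1 UMI numbered 8, 29 and 12, and those with no Cdc20 UMI 16, 4 and 0. Just inside the limit, at 0.03 to 0.035%, lay 64 WT, 74 KO and 38 KI members, and just outside, at 0.025 to 0.03%, lay 107, 100 and 57 cells that met the other limits.

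Ddx25 itself (chromosome 9, 35536647 to 35558528 on GRCm38) checks the labels. It gave 2651 UMIs or 229 CPM in WT members, 4 UMIs or 0.179 CPM in KO and 1978 UMIs or 101 CPM in KI. The KO library was near 0 and the KI library below WT. KI mice carry the human gene and reads were counted against the mouse genome; how reads of the human sequence were counted was not tested, and this holds wherever a KI ratio of Ddx25 is given.

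Gated cells varied along a line of germ cell markers. Piwil1, the piRNA-binding protein of pachytene spermatocytes, and Acrv1 and Spaca1, acrosome genes of round spermatids, marked opposite ends of the set. Over single cells the Spearman correlation of Piwil1 with Acrv1+Spaca1 was -0.62, -0.69 and -0.72. At 8000 UMIs a cell, 30.4% of WT members held a UMI of Piwil1 and none of Acrv1 or Spaca1, 40.7% the reverse and 15.7% both. In KO these shares were 34.5%, 43.4% and 11.4%, and in KI 23.8%, 51.1% and 9.65%. Both kinds of cell were present in every library.

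**Figure D1:**
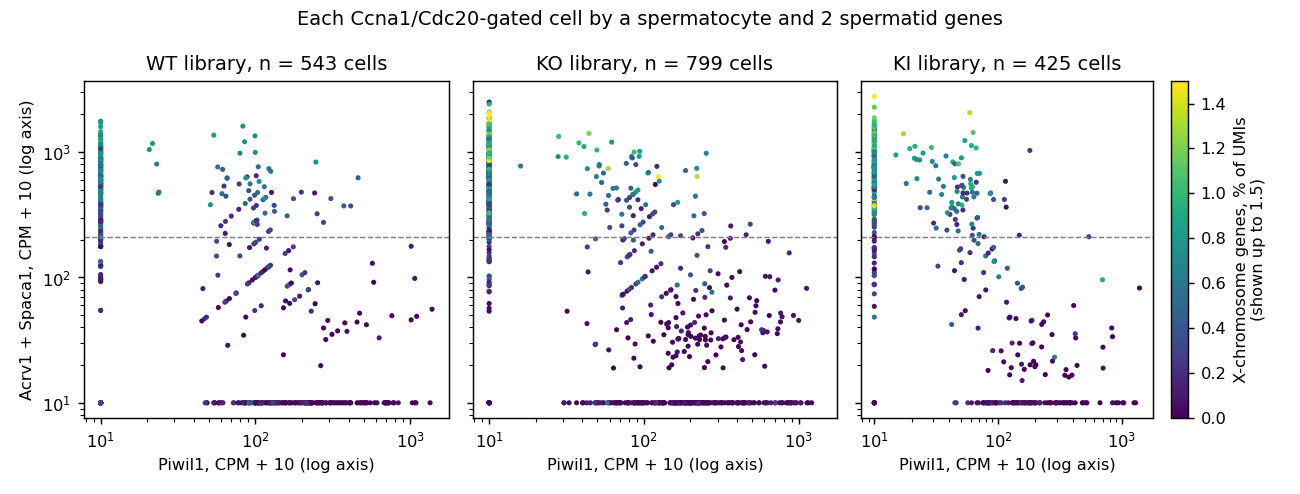
Each point is 1 gated cell, placed by its CPM of Piwil1 and of Acrv1 plus Spaca1 (10 CPM added, log axes) and colored by the share of its UMIs from X-chromosome genes, in 3 panels for WT, KO and KI. The dashed line marks 0.02% of UMIs for Acrv1+Spaca1, and cells above it tend to lower Piwil1 and higher shares of X-chromosome UMIs.

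The name late spermatocyte nearing division therefore covers only a part of these cells, and they are called by their gate. They were split at 0.02% of UMIs for Acrv1+Spaca1, a limit set after their values were seen. Acrv1/Spaca1-low cells numbered 306, 430 and 197, and Acrv1/Spaca1-high cells 237, 369 and 228. The high cells made up 43.6% of WT members (39.4 to 47.9%), 46.2% of KO (42.7 to 49.7%) and 53.6% of KI (48.8 to 58.5%). Within 0.015 to 0.025%, near the limit, lay 34, 50 and 24 cells. Low cells held a median of 21001, 30717 and 49904 UMIs, and high cells 12003, 14255 and 26735, so the median was lower on the high side in 3 of 3 libraries. For reference 2 further sets of kept cells were taken: Piwil1-gated cells (185, 246 and 121), with at least 4 UMIs and 0.03% of Piwil1, and Acrv1/Spaca1-gated cells (418, 157 and 112), with at least 4 UMIs and 0.05% of Acrv1+Spaca1, both under 0.03% for Ccna1+Cdc20 and for Dazl and under 1% for the protamine and transition protein genes; the gate genes were left out of the counts below.

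The X chromosome, which neither the gate nor the split used, followed the same order. In the median Piwil1-gated cell X-chromosome genes gave 0.0237%, 0.0326% and 0.0211% of UMIs. In the Acrv1/Spaca1-low cells the median was 0.0717%, 0.0445% and 0.0497%, in the high cells 0.535%, 0.647% and 0.718%, and in Acrv1/Spaca1-gated cells 0.959%, 1.51% and 1.47%. Every step upward was seen in each of the 3 libraries. X-chromosome genes gave over 0.5% of UMIs in 1.31% of the low WT cells and 54.0% of the high WT cells, against 1.86% and 68.3% in KO and 4.06% and 72.8% in KI. Thinned to 8000 UMIs, 25 of 306 low WT cells had no X UMI at all, and none of the high cells did in any library. Across members the Spearman correlation of the X share with Acrv1+Spaca1 was 0.78, 0.83 and 0.84.

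**Figure D2:**
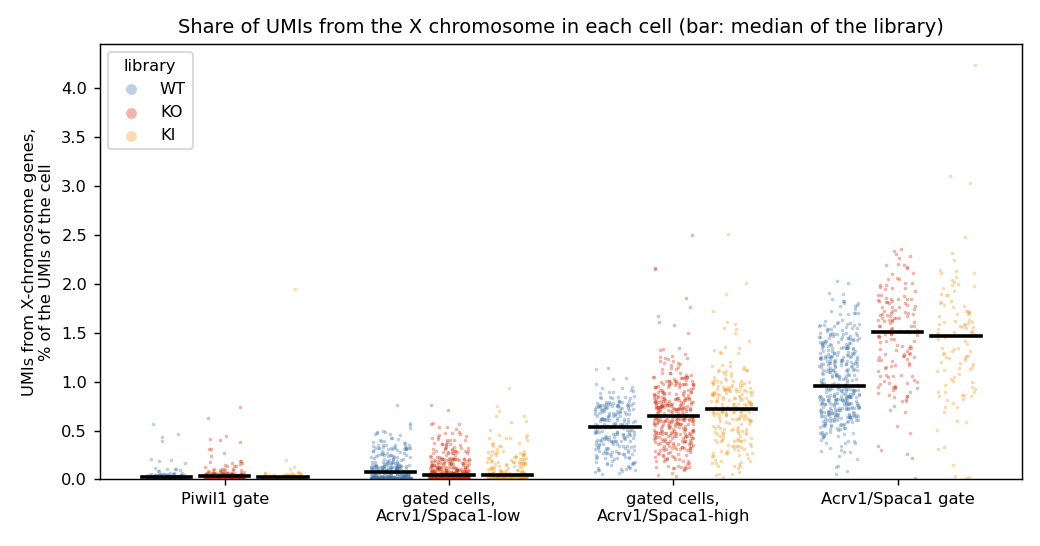
Points are cells, with the share of UMIs from X-chromosome genes in percent on the y axis and 4 sets of cells on the x axis, colored by library, and bars are medians. Medians lie between 0.0211% in Piwil1-gated KI cells and 1.51% in Acrv1/Spaca1-gated KO cells, with gated cells between.

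Among the X-linked genes of high cells, Tsga8, a germ cell nuclear protein gene, stood at 543, 589 and 567 CPM, against 69.5 CPM in low WT cells. Slxl1, a multicopy X-linked gene whose close copies can share reads, stood at 179, 202 and 229 CPM in high cells. Of 78 X-linked genes over 20 CPM in high cells, 7 were at least 2-fold higher in KO than in WT and 10 in KI, where 1.42% and 1.83% of all 6071 genes were. None of the 78 was 2-fold lower, and the medians of their log2 ratios were 0.45 and 0.58, beside 0.06 and 0.08 over all 6071 genes. The limit was a mean over the 3 libraries, so a gene could pass it by its level in the mutants, and nothing rests on these counts. Of the X-linked housekeeping genes with autosomal retrogene copies, Pgk1 (phosphoglycerate kinase) stood in members at 1.55, 3.31 and 1.79 CPM beside its copy Pgk2 at 223, 237 and 255 CPM, and Pdha1 (pyruvate dehydrogenase) at 0, 0.0894 and 0.102 CPM beside Pdha2 at 155, 225 and 201 CPM. Ubl4a was the highest of these X-linked genes, at 17.3, 13.7 and 19.7 CPM, near its copy Ubl4b at 16.0, 23.2 and 21.4. The 10 X-linked genes of the list summed to 10.3, 13.6 and 17.4 CPM in Piwil1-gated cells, 35.8, 38.3 and 47.8 in members and 66.7, 84.9 and 91.4 in high cells.

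Against Piwil1-gated cells, 3 of 13 cyclin and Cdk genes, 2 of 24 genes of the anaphase-promoting complex list, 5 of 17 kinetochore genes and 1 of 27 spindle genes were at least 2-fold higher in members in 3 of 3 libraries, where 11.8% of all genes were, and 2, 4, 0 and 2 were lower, where 11.1% were. A gene entered at 20 CPM in either set, so one that passed in a single set was likely to differ, and nothing rests on these counts. Ccnb1, the cyclin B1 that activates Cdk1, stood at 125, 125 and 134 CPM, against 8.59, 10.9 and 9.21 CPM in Piwil1-gated cells. Plk1, the kinase of mitotic entry, stood at 134, 127 and 130 CPM against 15.1, 11.5 and 10.7. At 8000 UMIs, a UMI of Ccnb1 was found in 57.8%, 51.9% and 61.4% of Acrv1/Spaca1-low cells and in 64.6%, 66.4% and 64.0% of high cells, against 6.49%, 9.76% and 4.96% of Piwil1-gated cells and 41.6%, 23.6% and 24.1% of Acrv1/Spaca1-gated cells. Before thinning the shares of low and high cells lay between 76.5% and 91.2%. Cdk1 was higher in low cells, at 111, 152 and 135 CPM, than in high cells, at 28.9, 55.3 and 44.4 CPM.

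The cell division lists gave the following at the 20 CPM limit, where the highest genes are named. In cyclin and Cdk control (12 of 22 genes over 20 CPM) these were Spdya, a Cdk2 activator of meiosis, at 309, 352 and 327 CPM, Cks2, a Cdk subunit, at 232, 345 and 258, and Ccnb2, cyclin B2, at 271, 248 and 264. In the list of the anaphase-promoting complex and spindle checkpoint (19 of 29) Ube2s, a ubiquitin-conjugating enzyme of that complex, stood at 1415, 1522 and 1490 CPM, Pttg1, securin, at 205, 235 and 222, and Anapc11, a subunit, at 223, 203 and 187. Among kinetochore and chromosome passenger genes (17 of 21) Haspin, the histone H3 kinase, stood at 603, 680 and 721 CPM and Cenpf at 352, 393 and 415. Aurka stood at 286, 296 and 279 and Birc5, survivin, at 280, 244 and 236. Of spindle and cytokinesis genes (25 of 29), the tubulins Tubb4b, Tuba3b and Tuba3a and the condensin subunit Smc4 were highest, with Tubb4b at 1485, 1728 and 1669 CPM and Smc4 at 642, 729 and 669. Tuba3a and Tuba3b are near-identical copies and can share reads.

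Between genotypes all 4 list medians were small over all members. Of 17 kinetochore and 25 spindle genes, 15 and 21 lay above WT in KO, and 12 and 18 in KI. Of 12 cyclin and Cdk genes 6 did in KO and 7 in KI, and of 19 anaphase-promoting complex genes 9 in both. Median log2 ratios of KO and KI over WT were 0.09 and 0.09 for cyclin and Cdk control, -0.01 and -0.03 for the anaphase-promoting complex list, 0.16 and 0.21 for kinetochore genes and 0.18 and 0.10 for spindle genes, which turned to -0.07 and -0.07 in cells of at least 0.06% Ccna1+Cdc20. Over all 6107 genes of at least 20 CPM the medians were 0.04 and 0.04. More of all genes thus lay above WT than below it, and nothing rests on the counts above WT. In these 4 lists 1 gene was at least 2-fold away from WT in either mutant, Ube2c, higher in both, where 0.164% to 0.458% of all genes were in 1 direction. Hmmr, which is in none of the lists, was past 2-fold in both mutants as well.

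Within the gate, cells with a larger Ccna1+Cdc20 share held more of other division genes. From the bin of 0.03 to 0.06% to that of 0.06 to 0.12%, Ccnb1 was 98.3 against 187 CPM in WT, 80.7 against 191 in KO and 87.8 against 216 in KI. Plk1 was 113 against 180, 95.3 against 176 and 96.1 against 189 CPM. Piwil1 went the other way, at 197 against 114, 232 against 79.4 and 192 against 76.4 CPM. So did Acrv1, at 132 against 46.4, 124 against 103 and 175 against 96.8 CPM. The X share was 0.264% against 0.181% in WT, 0.257% against 0.261% in KO and 0.378% against 0.279% in KI. The lower bin held 358, 446 and 248 cells and the upper 180, 343 and 173, with 5, 10 and 4 cells above 0.12%.

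The summed level of meiotic prophase lists was lower in members than in Piwil1-gated cells. The 17 synaptonemal complex and cohesin genes summed to 2137, 2380 and 2345 CPM in members against 3473, 3492 and 3636, and the 24 recombination genes to 429, 509 and 476 against 892, 923 and 994. Over all 7026 genes compared at 20 CPM in either set, 778 (11.1%) were lower and 830 (11.8%) higher in 3 of 3 libraries. Sycp3, the axis protein, stood at 259, 328 and 303 CPM in members against 440, 512 and 502, and Mlh3, a crossover factor, at 45.4, 60.7 and 55.3 against 106, 111 and 126. Syce1, at 614, 618 and 609 CPM, and Smc1b, a meiotic cohesin, at 267, 318 and 347, were the highest of the axis list, followed by Sycp3 and by Sycp2 at 223, 281 and 254. Of recombination genes Ankrd31 was highest at 83.2, 89.0 and 87.6 CPM, then Spo11 at 76.5, 94.8 and 78.1 and Hsf2bp at 75.2, 81.4 and 76.3. The 1088 X-linked genes summed to 2383, 2587 and 3416 CPM in members against 452, 524 and 289. These sets were cut by genes of the same stages, so the levels describe the sets.

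Genes of at least 50 CPM on average in either set were ranked. Leading the members over Piwil1-gated cells were BC061237, Cnbd1, Gm3453, A930018P22Rik, 4921504E06Rik, Cntn6, Slxl1, Iqca, 4933436I20Rik and Gm7247, with log2 ratios of at least 3.85 in each library. Lowest were AC125141.3, AC125141.2, Kcnk10, Chd3os and Gm21221.

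Members were next set against Acrv1/Spaca1-gated cells. Of 7600 genes, 1791 (23.6%) were at least 2-fold higher and 1956 (25.7%) lower in 3 of 3 libraries. Genes entered at 20 CPM in either set, and no list is counted, because 141 X-linked genes passed here, of which only 22 were over 20 CPM in members. The 21 kinetochore genes summed to 2474, 2705 and 2677 CPM in members against 1014, 900 and 1008, and the 13 mitochondrially encoded genes to 13936, 15273 and 14861 against 3720, 2637 and 2092. The X-linked genes stood at 10093, 15312 and 14833 CPM in Acrv1/Spaca1-gated cells, above their sums in members. At 50 CPM or more on average in either set, the highest ratios were those of Rnf144b, Lsm3, Pou5f2, Ube2t, Tcam1, Mlh3, Mllt10, Zc3h7a, Cyp19a1 and Phf2. The lowest were those of 1700020G17Rik, Tepp, BC048562, Spata25 and 1 of the genes with the symbol Vmn2r7. Pou5f2, a germ cell POU-domain factor, stood at 90.1, 139 and 111 CPM against 2.76, 9.41 and 2.21. Spata25 stood at 5.87, 11.9 and 8.54 CPM against 182, 395 and 290.

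Among genes of at least 50 CPM on average in either set, those that differed most between low and high cells were the following. Agbl1, Nkx2-6, Ypel3, 4932411K12Rik, Fam24a, 4921509A06Rik, Tsga13, Gm6569, Krt88 and 4930587E11Rik were at least 4.62 log2 units higher in the high cells of each library. Fam24a stood at 15.9, 12.1 and 6.79 CPM in low and 499, 505 and 501 CPM in high cells. Pou5f2, Cyp19a1, Mgll, Gm14244 and Gm16083 were lowest. Cyp19a1, aromatase, stood at 131, 195 and 191 CPM in low and 12.8, 18.9 and 9.76 in high cells.

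Of late prophase regulators the highest were Ybx3 and Ybx2, Y-box proteins that bind stored mRNA, at 2570, 2900 and 2817 and at 907, 1042 and 957 CPM, Hspa2, the chaperone of spermatocytes, at 1234, 1405 and 1346, and Tbpl1, a TBP-related factor, at 999, 880 and 891. Of 16 piRNA pathway and chromatoid body genes none was 2-fold from WT, where 0.164% to 0.458% of all genes were in 1 direction, so the count is near the background, with medians of 0.15 in KO and 0.12 in KI. Gtsf1 stood at 828, 803 and 825 CPM, Mael at 513, 613 and 609, Ddx4, the vasa helicase, at 370, 389 and 419, and Tdrd6 at 269, 286 and 297. Acrosome genes were among the abundant mRNAs, with Spink2 at 2154, 1927 and 1907 CPM, Dkkl1 at 1452, 1443 and 1381, Zpbp2 at 681, 644 and 645 and Acrbp at 582, 542 and 540. Of 20 acrosome genes none was 2-fold from WT over all members, beside the same low share of all genes.

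Over all members KO had 12 genes at least 2-fold higher (0.196% of 6107) and 10 lower (0.164%). KI had 28 higher (0.458%) and 15 lower (0.246%). The counts moved with the settings: KO had 97 higher genes in cells of at least 0.06% Ccna1+Cdc20, 58 with bins of that share weighted equally and 1 with 10 CPM added, and KI had 51, 71 and 9. Both ratios share the WT library, so that a gene off in WT alone would be off in both; 8 genes were 2-fold higher and 5 lower in both. KI against KO gave 9 higher and 8 lower. The 90th percentile of the absolute log2 ratio was 0.41 for KO over WT, 0.43 for KI over WT and 0.31 for KI over KO.

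Hmmr, a spindle and hyaluronan-binding protein, had the highest smaller ratio of both mutants among genes of at least 50 CPM. It stood at 42.8, 95.2 and 91.5 CPM, with log2 ratios of 1.14 (1.01 to 1.30) and 1.08 (0.95 to 1.24). Ube2c, the ubiquitin-conjugating enzyme that works with the anaphase-promoting complex, stood at 74.7, 155 and 171 CPM, with ratios of 1.05 (0.95 to 1.17) and 1.19 (1.09 to 1.31). Both mutants lay above WT in Piwil1-gated cells as well, at 10.3, 17.8 and 13.6 CPM of Ube2c. Carhsp1, a calcium-regulated RNA-binding protein, stood at 32.0, 67.9 and 76.4 CPM. Then came 1700061N14Rik, Terf1 (a telomere protein, 27.9, 53.4 and 72.9 CPM), Sec62 (a translocon subunit, 47.4, 92.0 and 88.1), Gm21103, Gm48544, Tpi1 (triosephosphate isomerase, 127, 212 and 205), Cep290, Ccer1 and Brca2 (39.3, 66.4 and 61.2), with the smaller ratio of KO and KI between 0.63 and 0.94. In low cells alone the KI ratios of Carhsp1 and 1700061N14Rik were -0.38 and -0.04 and the KO ratio of Ccer1 was -0.11, and in high cells alone the KO ratio of Gm48544 was -0.78.

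**Figure D3:**
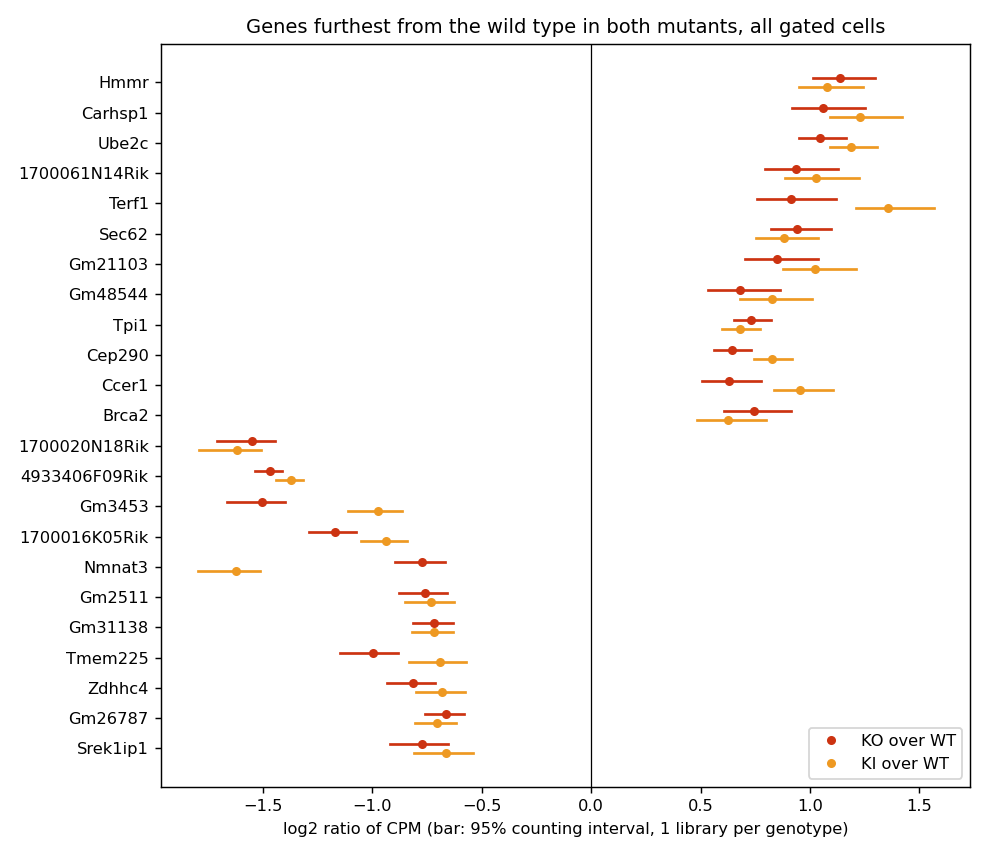
Log2 ratios of KO and of KI over WT are drawn with 95% counting intervals as bars. Shown are the 12 highest and 11 of the 12 lowest genes by the smaller ratio, at 50 CPM or more on average, Ddx25 left out. Hmmr lies at 1.14 and 1.08 at the top, and 1700020N18Rik lies at -1.55 and -1.62 among the lowest.

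Of the genes of at least 50 CPM on average lower in both mutants, 1700020N18Rik stood at 100, 33.6 and 32.0 CPM, and 4933406F09Rik at 445, 160 and 171 CPM. The log2 ratios of 4933406F09Rik were -1.47 (-1.54 to -1.41) and -1.37 (-1.44 to -1.32). Ddx25 followed, then Gm3453 (100, 34.7 and 50.6 CPM), 1700016K05Rik (132, 58.2 and 68.5), Nmnat3, a mitochondrial NAD synthesis enzyme (102, 59.1 and 32.3), Gm2511, Gm31138, Tmem225, Zdhhc4, Gm26787 and Srek1ip1. 4933406F09Rik lay below WT in Piwil1-gated cells too, at 234, 118 and 115 CPM, and in Acrv1/Spaca1-gated cells, at 415, 134 and 144.

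The comparison was repeated on each side. In Acrv1/Spaca1-low cells 4 genes (0.0701% of 5710) were at least 2-fold higher in KO and 16 (0.28%) lower, and 11 (0.193%) higher and 17 (0.298%) lower in KI. In Acrv1/Spaca1-high cells 86 genes (1.42% of 6071) were higher in KO and 85 (1.4%) lower, and 111 (1.83%) higher and 115 (1.89%) lower in KI. In high cells 64 genes were higher and 71 lower in both mutants, against 2 and 7 in low cells. KI and KO lay near each other in high cells, with 12 genes 2-fold higher and 12 lower in KI than in KO. The summed UMIs of high cells were 4048143, 7054837 and 7787352.

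**Figure D4:**
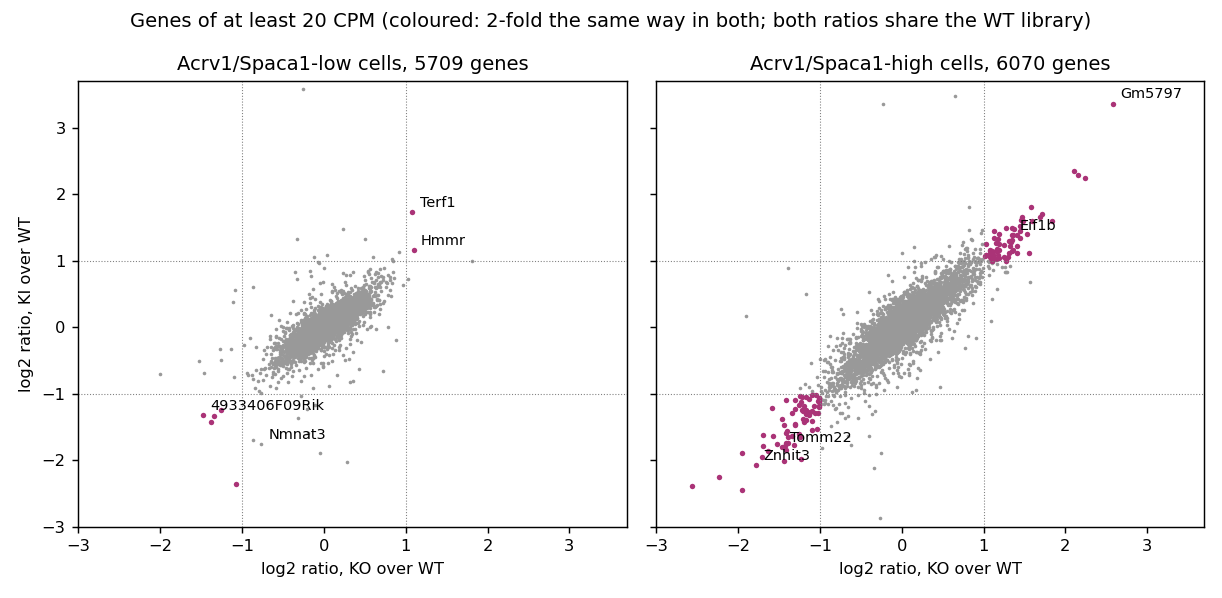
Each point is a gene of at least 20 CPM other than Ddx25, with the log2 ratio of KO over WT on the x axis and of KI over WT on the y axis, for low cells at left and high cells at right; colored genes are past 2-fold the same way in both. There are 64 higher and 71 lower in high cells, and both axes share the WT library; the axes end at -3 and 3.7, and genes beyond them, Gm48168 and Rabgef1 in both panels and a few others in high cells, are not drawn.

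The 71 lower genes were chosen by their values in high cells. In low cells the 65 of them over 20 CPM had median log2 ratios of -0.10 in KO and -0.19 in KI, and 3 were 2-fold lower in both there as well, 1700020N18Rik, 4933406F09Rik and Gm48168. In Acrv1/Spaca1-gated cells of the same libraries 45 were over 20 CPM and 40 of them were again 2-fold lower in both, with medians of -1.98 and -2.38; there 3.25% of all 5964 genes were. Tomm22, a receptor subunit of the mitochondrial import pore, stood at 1313, 1158 and 1132 CPM in low cells, at 1338, 487 and 384 in high cells and at 902, 127 and 82.6 in Acrv1/Spaca1-gated cells. Its ratios in high cells were -1.46 (-1.52 to -1.40) and -1.80 (-1.87 to -1.74).

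Znhit3, a zinc finger protein of box C/D particle assembly, stood at 302, 292 and 303 CPM in low cells and at 208, 59.8 and 48.5 in high cells. Thoc7, a subunit of the THO complex that couples transcription to mRNA export, stood at 376, 356 and 364 CPM in low and at 200, 74.6 and 59.1 in high cells. Cox4i1, a subunit of cytochrome c oxidase, stood at 1528, 1318 and 1256 CPM and at 1145, 542 and 505. Among genes of at least 50 CPM on average, Cgrrf1, Tlcd1 and Cdc42ep3 were also among the lowest. So were 1700010B08Rik, 4930455B14Rik, 1700110I01Rik, 1700016K05Rik and 4933406F09Rik. Spc25, a subunit of the Ndc80 kinetochore complex, stood at 61.0, 28.9 and 4.75 CPM in high cells, against 88.1, 82.2 and 68.2 in low cells.

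The 64 genes higher in both mutants on the high side were chosen by their values there. In low cells 7 of them were over 20 CPM, with median log2 ratios of 0.81 in KO and 0.72 in KI, and 1 was 2-fold higher in both. Morn3 stood at 28.4, 83.9 and 76.5 CPM in high cells, Lmnb2, lamin B2, at 39.0, 105 and 85.5, and Carhsp1 at 74.4, 190 and 182. On the X chromosome lay 7 of the 64, against 78 of all 6071 genes. Genes entered by their mean over the 3 libraries, which a higher level in the mutants raises, so nothing rests on this count. Among those of at least 50 CPM on average the furthest were Gm5797 (8.65, 57.0 and 98.1 CPM) and Gm8362 (30.9, 87.7 and 94.9). They are multicopy genes of chromosome 14 whose reads can be shared, as can those of Gm3460. Crip2, 4933405O20Rik, 4933411G06Rik and Sec62 completed the leading group. In Acrv1/Spaca1-gated cells, with the limits given above for that set, 25 of 59 were 2-fold higher in both, where 4.48% of all genes were.

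Eif1b and Pfn1 took another course. Eif1b, a paralog of the start codon selection factor eIF1, stood at 718, 762 and 776 CPM in low cells and at 177, 455 and 464 in high cells, with ratios in high cells of 1.36 (1.25 to 1.48) and 1.39 (1.28 to 1.51). Pfn1, profilin, stood at 263, 332 and 286 CPM and at 92.4, 212 and 191. For both genes all libraries were lower on the high side, and WT the lowest. Ube2c stood at 79.8, 144 and 160 CPM in low and 65.2, 180 and 188 in high cells, above WT on both sides. Hmmr was a gene of the low cells, at 57.2, 124 and 129 CPM, against 16.1, 33.5 and 34.8 in high cells.

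**Figure D5:**
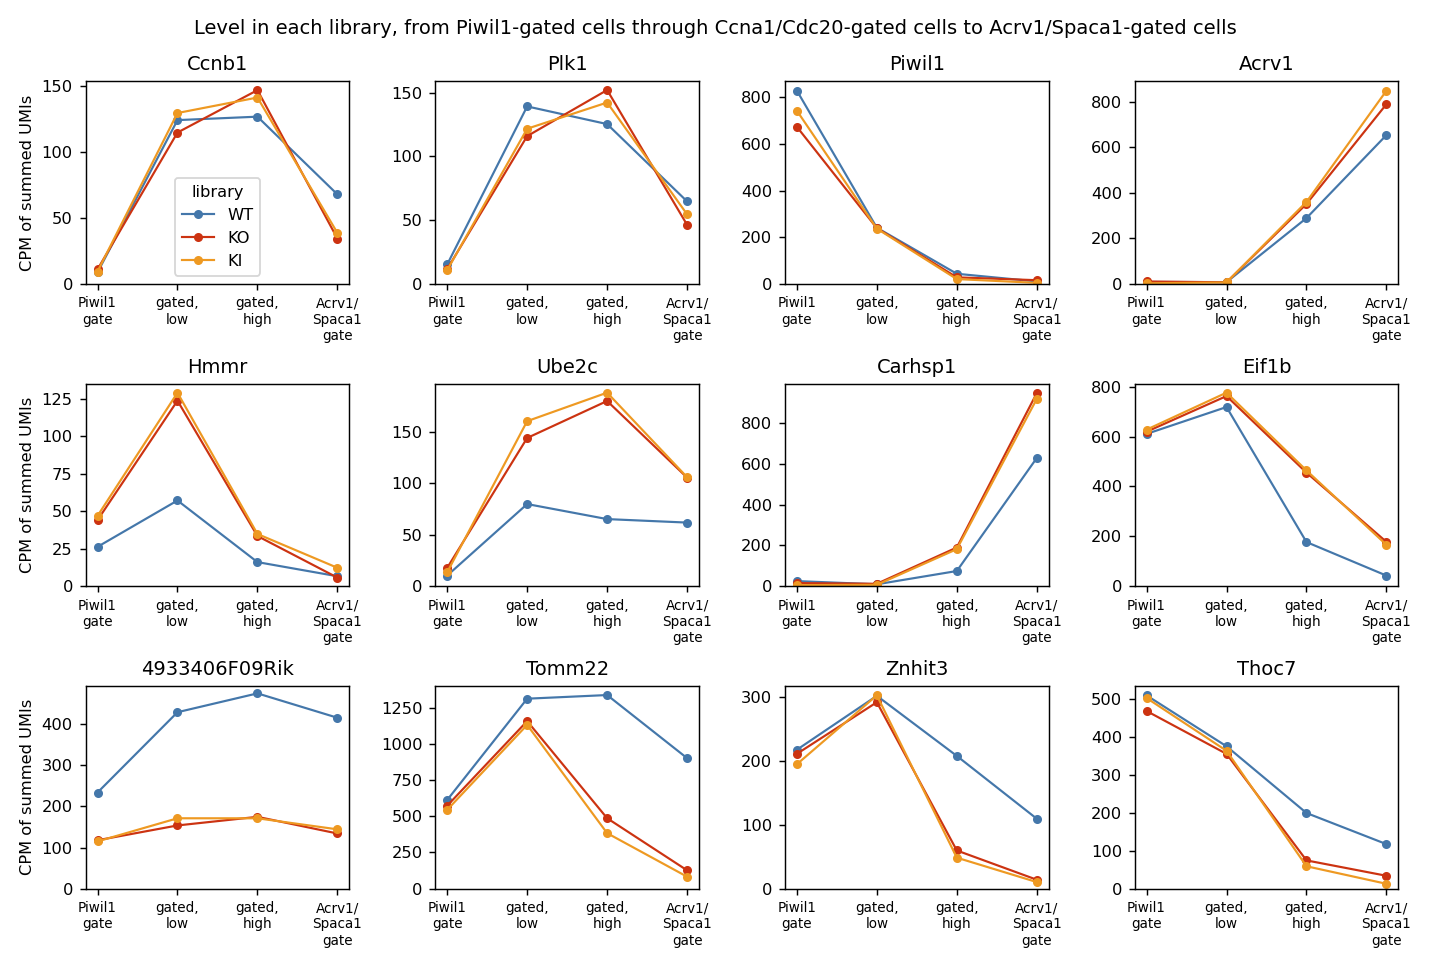
Lines give the CPM of summed UMIs in WT, KO and KI for 12 genes, over Piwil1-gated cells, low and high gated cells and Acrv1/Spaca1-gated cells from left to right. Tomm22, Znhit3 and Thoc7 separate between low and high cells, at 1338, 487 and 384 CPM for Tomm22, whereas 4933406F09Rik and Ube2c already differ in low cells.

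High cells of the 3 libraries also differed in the measures that order them. Their median Acrv1+Spaca1 share was 0.0548%, 0.0631% and 0.0647%, and their median X share was higher in the mutants as given above. In high cells with an X share of 0.4 to 0.8% (139, 181 and 92 cells), 37 genes were 2-fold higher and 92 lower in KO, and 57 higher and 114 lower in KI. The counts of lower genes lay near those of all high cells and the counts of higher genes were smaller, in fewer cells and UMIs. X-linked genes make up that share and lay above WT in both mutants, so an equal X share need not mean an equal stage. Whether the high cells of the libraries differ in stage was not tested. The protamine and transition protein UMIs of high cells would all be free RNA at a fraction of 3.42%, 5.35% and 1.76% of the profile of barcodes with 200 to 600 UMIs, and with that profile subtracted 101 genes were higher and 90 lower in KO and 142 and 118 in KI.

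In low cells the leading genes of at least 50 CPM on average were in part those of all members. Hmmr, Terf1, Ube2c, Gm48544, Sec62, Tpi1, Brca2, Pcgf5, Sirt2, Bod1l, Zfp397 and Paip1 were highest in both mutants, with Terf1 at 29.2, 62.8 and 98.8 CPM. After Ddx25, 1700020N18Rik and 4933406F09Rik the lowest at that limit were Upf1, Nmnat3, 1700016K05Rik, Zdhhc4, Gm26787, Dydc1, Rassf1, Tra2b and Gm2511. Upf1, the helicase of nonsense-mediated decay, stood at 88.7, 51.5 and 44.4 CPM, and Tra2b, a splicing factor, at 332, 216 and 208.

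Genes that the study names stood in members as follows. Spermatid genes of that group were higher in high than in low cells: Tssk1, a spermatid kinase, stood at 230, 321 and 309 CPM there, Atp6v1e2 at 172, 266 and 243, Capza3 at 83.0, 95.7 and 102, Eqtn at 50.6, 95.4 and 86.2 and Iqcf1 at 21.5, 34.4 and 25.4, each lowest in WT. In low cells the same genes stood between 1.53 and 14.9 CPM. The study reports them as lower in round spermatids of KO and KI, another set of cells. It did so in its single-cell cluster and by quantitative PCR of isolated round spermatids, relative to Tex29. In Acrv1/Spaca1-gated cells the 25 genes of the acrosome list summed to 12943, 14758 and 13941 CPM, lowest in WT as well. That set was cut by 2 genes of the list, and the reason for the difference from the study was not tested. Of 22 acrosome genes over 20 CPM in high cells, 18 lay above and 4 below WT in KO, and 16 and 6 in KI. Their median log2 ratios were 0.27 and 0.26, beside 0.06 and 0.08 over all 6071 genes. Genes entered by a mean over the 3 libraries, which a higher level in the mutants raises. The cells were cut by Acrv1 and Spaca1 of the same list, so nothing rests on these counts. Median Acrv1+Spaca1 and X shares of high cells were also higher in the mutants, and their part in these levels was not tested. Of 5 translation genes none was 2-fold from WT, where 0.164% to 0.458% of all genes were in 1 direction. Rps29, a ribosomal protein, stood at 2043, 1539 and 1507 CPM, Eif2s2, an eIF2 subunit, at 784, 618 and 596, Rps26 at 807, 693 and 735, Eif1 at 989, 1085 and 1045, and Eif4e at 147, 146 and 141. Dnah8, a dynein heavy chain, stood at 932, 1123 and 1080 CPM, and Dnajc3, a chaperone, at 45.3, 62.5 and 60.3. Calm2 and Rsph1 stood at 1022, 1224 and 943 and at 2385, 2846 and 2637 CPM, and Tex101 at 82.0, 108 and 86.3.

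Prm1 stood at 400, 128 and 61.9 CPM, below the limit of the rule, and is no finding. Of the 7 late spermatid genes over 20 CPM that the rule did not use, 3 lay above and 4 below WT in KO and 4 above and 3 below in KI, with median log2 ratios of -0.17 and 0.02. Prm1 was highest in WT in the barcodes of 200 to 600 UMIs as well, at 16279, 4438 and 5837 CPM. The part of free RNA in these levels was not tested.

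Markers of other cells were summed as well. The sums in WT, KO and KI were 38.7, 41.4 and 34.9 CPM over 11 Sertoli cell genes, 3.11, 4.11 and 32.9 over 10 macrophage genes, 2.76, 5.81 and 21.8 over 7 Leydig cell genes, 3.88, 5.50 and 5.27 over 10 stromal and myoid genes, and 1.04, 46.3 and 0.102 over 4 haemoglobin genes. In KI 1 cell held 541 of the 644 macrophage UMIs and 1 cell 351 of the 426 Leydig UMIs, and in KO 1 cell held 947 of the 1036 haemoglobin UMIs. Of the macrophage genes 4, 3 and 1 had no UMI in members, and of the Leydig cell genes 3, 1 and 0; the part of these cells in the results was not tested. Among spermatogonial genes Dmrtb1, which spermatocytes also express, made up most of the sum at 724, 819 and 787 CPM, and Dmrt1 and Uchl1 stood at or under 3.17 CPM.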

How the data were processed

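Testicular cells of 3 libraries, WT, KO and KI, were made with the 10x Genomics 3′ chemistry. The authors deposited UMI counts of 31053 genes in 6794880 barcodes per library, unfiltered and not normalized; the submitters' processing notes give Cell Ranger 2.1.1 and mm10, and the header of the matrices names Cell Ranger 4. The libraries held 82973909, 91388296 and 73150373 UMIs. The method of alignment beyond this was not given in the sources used here. Groups came from the labels, which number no replicates. The genes, lists, cell gates and members were chosen with earlier results of these data known.

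UMIs of the deposited counts were summed over the members of a library and scaled to CPM. Log2 ratios had 1 CPM added and 95% exact binomial counting intervals without it; shares had exact Clopper-Pearson intervals. Genes of at least 20 CPM on average were compared at 2-fold, rule genes left out. Named genes were the 12 highest and 12 lowest by the smaller of both ratios at 50 CPM or more, the 10 highest and 5 lowest against each gate, the 4 highest of each list and those that the study follows; Cox4i1, Pfn1, Spc25 and other genes of the Acrv1/Spaca1-high side outside this rule were chosen after their values were seen, as were Tsga8 and Slxl1. The UMI ratio code was tested on simulated data. Sums and intervals were computed in Python 3.11.15 with scipy 1.17.1, numpy 2.4.6 and pandas 2.3.3, figures with matplotlib 3.10.9, and size factors with edgeR 4.0.16 in R 4.3.3. Positions are of GENCODE on GRCm38. Alternatives were depth, gate limits, normalization, pseudocount, weighting, free RNA and low-value filters. 1 gene that the naming rule selects is not reported here. Counting intervals cover counting error only.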

Additional observations from a re-analysis of the deposited data

Results flagged for a closer look

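Barcodes of 2000 to 8000 UMIs were left out of the members, those of 5000 or more entering only the alternative with that minimum, and 34 in WT, 130 in KO and 21 in KI met the rest of the rule for gated cells.

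Barcodes of 10 to 100 UMIs entered the results only as 1 alternative, the subtraction of free RNA. Prm1 stood at 39315 CPM in them in KO and 32284 in KI, against 32867 in WT, and in barcodes of 200 to 600 UMIs the values were 16279 in WT, 4438 in KO and 5837 in KI. Ddx25 stood at 74.4 CPM in the KO barcodes of 10 to 100 UMIs (23 UMIs of 308992), against 80.9 CPM in WT, and at 1.35 CPM in KO barcodes of 200 to 600 UMIs (25 of 18494317). In KO gated cells it was 0.179 CPM.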

How the results depend on the processing

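No paired analysis was possible because each genotype had 1 library, and for the same reason no replicate could be left out. The splits at 0.02% of Acrv1+Spaca1, the subtraction of free RNA with 200 to 600 UMIs and the alternatives on high cells were chosen after seeing the data. The 48 ratios of named genes kept their sign in 13 alternatives; 45 kept it in low cells and 47 in high cells, with the exceptions Carhsp1 KI -0.38, 1700061N14Rik KI -0.0398 and Ccer1 KO -0.11 in low and Gm48544 KO -0.78 in high cells. List medians are log2 ratios over the list genes of at least 20 CPM in all members. In low cells only 2 X-linked and 2 late spermatid genes reached 20 CPM. The low-cell medians of those lists below therefore rest mostly on genes under 20 CPM there. Over the 2 X-linked genes the low-cell medians were 0.03 in KO and 0.21 in KI. Another 33 list medians turned sign within the interval of the median over the list's genes. Of the ratios of named genes 190 moved without a change of sign, and they are not listed. The shares of members, counts of genes and list medians that moved follow, and their cause was not tested. With each kept cell thinned to 8000 UMIs, the share of members became WT 16.8%, KO 35.0%, KI 33.0%. With a UMI minimum of 5000, the share of members became WT 19.1%, KO 46.1%, KI 44.3%. With Ccna1+Cdc20 at least 0.06%, the share of members became WT 8.09%, KO 22.1%, KI 20.6%, and the genes past 2-fold became KO higher 97, KI higher 51, KI lower 24, and the list medians became spindle and cytokinesis KO -0.0714 (other sign), spindle and cytokinesis KI -0.074 (other sign), late prophase regulators KO -0.0608 (other sign), piRNA pathway and chromatoid body KO 0.0679, piRNA pathway and chromatoid body KI -0.11 (other sign), acrosome and early spermatid KO 0.80, early prophase KO -0.20 (other sign), early prophase KI 0.0256, X chromosome KO 0.74. With at least 2 UMIs of each of Ccna1 and Cdc20, the share of members became WT 19.1%, KO 43.1%, and the genes past 2-fold became KI higher 52. With no limit on Dazl, the share of members became KO 52.6%, KI 53.4%. Without members above the 95th percentile of UMIs, the share of members became KO 47.5%, and the genes past 2-fold became KO higher 20. In members with Acrv1+Spaca1 under 0.02%, the genes past 2-fold became KO higher 4, KO lower 16, KI higher 11, and the list medians became acrosome and early spermatid KO -0.13 (other sign), acrosome and early spermatid KI -0.43 (other sign), late spermatid KO -0.87, late spermatid KI -1.69 (other sign), mitochondrially encoded KI 0.33, X chromosome KO -0.46 (other sign), X chromosome KI -0.50 (other sign). In members with Acrv1+Spaca1 at least 0.02%, the genes past 2-fold became KO higher 86, KO lower 85, KI higher 111, KI lower 115, and the list medians became recombination and crossover KO 0.0207, recombination and crossover KI -0.0349 (other sign), piRNA pathway and chromatoid body KO 0.0602, piRNA pathway and chromatoid body KI 0.00505, early prophase KI 0.39, autosomal retrogene copies KI 0.53, X chromosome KO 0.42. With the mean over members of each cell CPM, the genes past 2-fold became KO higher 25, KI higher 60, and the list medians became piRNA pathway and chromatoid body KI 0.0351, X chromosome KO 0.42. With bins of Ccna1+Cdc20 given equal weight, the genes past 2-fold became KO higher 58, KO lower 54, KI higher 71, KI lower 74, and the list medians became spindle and cytokinesis KI 0.20, acrosome and early spermatid KO 0.47, X chromosome KO 0.57. With 10 CPM added, the genes past 2-fold became KO higher 1, KO lower 6, KI higher 9, and the genes past 2-fold in high cells became KO higher 33, KO lower 55, KI higher 41, KI lower 73. For genes with a mean of at least 50 CPM, the genes past 2-fold became KO higher 4, KO lower 6, KI higher 9, KI lower 6, and the genes past 2-fold in high cells became KO higher 23, KO lower 38, KI higher 31, KI lower 49. For every gene with a UMI in members, the genes past 2-fold became KO higher 139, KO lower 107, KI higher 340, KI lower 145. With a UMI minimum of 12000, the genes past 2-fold became KI higher 50, and the list medians became piRNA pathway and chromatoid body KI 0.0356, X chromosome KI 0.74. With free RNA of barcodes with 200 to 600 UMIs subtracted, the genes past 2-fold became KI higher 52. With TMM size factors, the list medians became recombination and crossover KI 0.0176. With no protamine and transition protein limit, the list medians became late spermatid KO -0.56, late spermatid KI -0.36 (other sign). With an X chromosome share of 0.4 to 0.8%, the genes past 2-fold in high cells became KO higher 37, KI higher 57.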

Other observations

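The genes given here for their level in 1 library, or in WT against both mutants, were chosen after their values were seen, except Nmnat3. Rpl29 (chromosome 9, from 106429454), a ribosomal protein gene with many processed copies that can share reads, stood at 60.6, 50.8 and 695 CPM (WT, KO, KI). Rabgef1 (chromosome 5), a Rab5 exchange factor, stood at 83.4, 169 and 5.06 CPM. Gm48168 (chromosome 13) stood at 84.5 CPM in WT and at 0.537 and 0.716 CPM in KO and KI, on both sides of the Acrv1/Spaca1 split. On chromosome 9, which holds Ddx25 from 35536647, Rsl24d1 (from 73113426) stood at 70.8, 52.8 and 24.2 CPM, Nmnat3 (from 98287435) at 102, 59.1 and 32.3, 1300017J02Rik at 16.8, 14.3 and 40.1, Rrp9 (from 106475963) at 28.9, 34.0 and 9.66 and Nprl2 (from 107542226) at 13.8, 19.4 and 32.2.

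Chromosome 9 held 358 of the 6107 genes compared (5.86%). It held 8 of the 43 genes past 2-fold in KI over WT (18.6%), 1 of 22 in KO over WT (4.55%), which was Ddx25, and 5 of 17 in KI over KO (29.4%), Ddx25 among them in each. Chromosome 14, with 3.83% of the genes compared, held 9 of the 43, 5 of the 22 and 2 of the 17. These are counts in single libraries, and a difference between genotypes cannot be told apart from one between libraries.

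Gm10354 (49.2, 17.2 and 18.2 CPM in high cells) and Gm2237 (59.8, 3.26 and 3.21) are genes with close copies that can share reads, and were lower in both mutants; they were chosen after their values were seen.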
